A study of Mus musculus with 12 samples.

Results

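Transcripts of 10 genes of MHC class I antigen presentation and the immunoproteasome were followed in 12 RNA-seq libraries made from mesenchymal stem cells of mouse bone marrow. The genes were H2-K1, H2-D1, B2m, Tap1, Tap2, Tapbp, Psmb8, Psmb9, Psmb10 and Nlrc5. They were taken by symbol from the deposited count table, 10 of 23955 symbols, with no measured value in the rule. The list itself was chosen with earlier results of these data known, so the counts of calls below are not those of a blind choice. All 10 had enough counts to be among the 12323 genes tested. The cells came from female C57BL/6 mice as a commercial stock and were used at passage 9 to 10. The TBT group received 50 nM tributyltin, an organotin that binds the retinoid X receptors and PPARγ. The ROSI group received 500 nM rosiglitazone, a PPARγ agonist, and the DMSO group received the vehicle at 0.1%. All groups shared an adipogenic cocktail of insulin (5 ug/mL), dexamethasone (1 uM) and isobutylmethylxanthine (0.5 mM) for 14 days, so DMSO libraries are from induced cells and not from untreated ones. Each group had 4 libraries, and the labels do not say whether these came from separate cultures, so p-values measure the spread between libraries, which may be technical. The comparisons ask how the class I pathway stood after each compound, and where the compounds differed from each other.

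MHC class I molecules carry peptides from the inside of a cell to its surface, where cytotoxic T cells read them. The proteasome cuts proteins into peptides, the transporter TAP moves them into the endoplasmic reticulum, and tapasin helps to load them onto a heavy chain paired with beta-2 microglobulin. Interferons raise most of these genes together, exchange the catalytic subunits of the constitutive proteasome for those of the immunoproteasome, and act in part through the transactivator NLRC5, which works on a promoter module of W/S, X and Y boxes. Mesenchymal stem cells carry class I at a low to moderate level and are known for raising it under interferon gamma.

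The promoters of the class I heavy chains and of B2m carry binding motifs of the interferon, NF-kB and NLRC5 routes, and they are shown because H2-K1 and B2m were called in both comparisons with ROSI. RefSeq (GRCm38.p6) held the sequence before the start site for 8 of the 10 genes; Tap2 and Nlrc5 are named only. The build of the deposited counts was mm9, so coordinates here are not those of the authors' counting. In GRCm38 (GENCODE), 7 of the members lie in or beside the MHC on chromosome 17, from Tapbp at chr17:33919332-33929292 and H2-K1 at chr17:33996017-34000347 to H2-D1 at chr17:35262730-35267499. B2m lies at chr2:122147686-122153083, Psmb10 at chr8:105935739-105938444 and Nlrc5 at chr8:94434391-94527272. Start sites of the sequences are RefSeq's, and GENCODE starts Psmb10, Tapbp, H2-D1, Psmb8 and Psmb9 52, 146, 364, 405 and 434 bases farther upstream, so that the windows of H2-D1, Psmb8 and Psmb9 lie inside the GENCODE genes. Each line gives the 250 bases before the annotated start site, on the strand of the gene, for H2-K1 (chr17:34000348-34000597, minus strand), H2-D1 (chr17:35262844-35263093, plus strand), B2m (chr2:122147437-122147686, plus strand), Psmb8 (chr17:34197945-34198194, plus strand) and Tap1 (chr17:34187306-34187555, plus strand). Capitals mark matches to the interferon, STAT and NF-kB motifs and, where both boxes stand at the module's spacing, to the X2 and Y boxes.
H2-K1: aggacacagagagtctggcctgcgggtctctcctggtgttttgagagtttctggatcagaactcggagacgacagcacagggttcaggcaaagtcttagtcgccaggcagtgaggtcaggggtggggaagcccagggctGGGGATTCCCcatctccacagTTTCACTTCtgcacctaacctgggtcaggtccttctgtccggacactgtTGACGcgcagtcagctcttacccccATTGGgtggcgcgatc
H2-D1: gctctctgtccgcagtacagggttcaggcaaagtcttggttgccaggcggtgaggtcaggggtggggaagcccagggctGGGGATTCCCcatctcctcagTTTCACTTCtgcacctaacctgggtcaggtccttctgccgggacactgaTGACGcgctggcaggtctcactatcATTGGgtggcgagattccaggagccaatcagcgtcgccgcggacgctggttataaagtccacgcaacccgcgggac
B2m: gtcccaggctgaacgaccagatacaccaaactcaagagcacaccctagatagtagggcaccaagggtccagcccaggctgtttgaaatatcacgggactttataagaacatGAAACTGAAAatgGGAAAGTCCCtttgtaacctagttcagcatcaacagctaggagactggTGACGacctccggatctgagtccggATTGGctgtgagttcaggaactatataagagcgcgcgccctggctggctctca
Psmb8: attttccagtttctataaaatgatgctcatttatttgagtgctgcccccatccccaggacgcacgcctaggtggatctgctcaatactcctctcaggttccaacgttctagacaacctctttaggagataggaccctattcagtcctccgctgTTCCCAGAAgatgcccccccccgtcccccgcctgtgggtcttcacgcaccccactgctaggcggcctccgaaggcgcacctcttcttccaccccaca
Tap1: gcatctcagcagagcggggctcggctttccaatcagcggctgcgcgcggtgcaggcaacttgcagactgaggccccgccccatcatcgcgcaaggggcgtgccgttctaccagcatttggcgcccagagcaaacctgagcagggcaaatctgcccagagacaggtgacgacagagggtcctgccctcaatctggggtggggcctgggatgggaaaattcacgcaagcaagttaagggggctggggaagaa

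Letters were searched on both strands of these 250 bases and of 27025 promoters of the same length. The core of the interferon-stimulated response element, searched as GAAA, any 2 bases and GAAA, was found in B2m, 139 to 130 bases before the start site, and in 3.04% of all promoters. A shorter interferon regulatory factor pair, GAANNGAAA, was found on the reverse strand of H2-K1 and H2-D1 and in 6.34% of all promoters. Neither pattern contains the other, and no member held both. The NF-kB pattern, GGG, any 2 bases, TT, any base and CC, was found in H2-K1, H2-D1 and B2m and in 4% of all promoters. The STAT pattern TTCNNNGAA was found in Psmb8, 97 to 89 bases before the start, and in 7.18% of all promoters. The X2 letters TGACG followed by 20 bases and then the Y letters ATTGG stood in H2-K1, H2-D1 and B2m; this spacing was chosen after the sequences were seen. It occurred in 25 of 27025 promoters, or 0.0925%. Of these, 3 were of the members, 1 was of H2-M3, another class I gene, and 21 were of genes outside every list used here. Tap1 and Psmb9 are transcribed in opposite directions from 1 stretch, and their windows share 225 bases, which hold TGACG but not the module. TGACG alone stood in 17.9% and ATTGG alone in 34.5% of all promoters. Psmb10 held none of these letters in its window, which says nothing of the factors themselves.

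**Figure D1:**
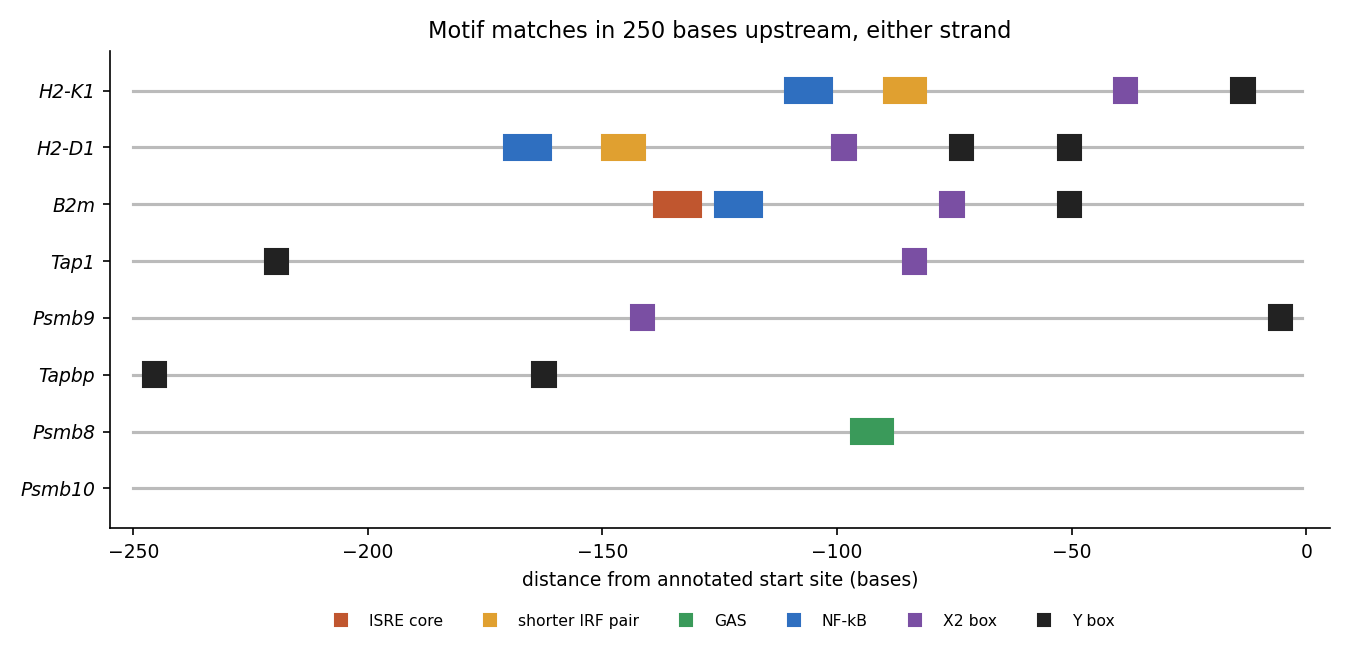
Position of each motif match in the 250 bases before the annotated start site of 8 members, with distance from the start in bases on the horizontal axis. In H2-K1, H2-D1 and B2m the X2 box and a Y box lie 20 bases apart, and the NF-kB match lies farther upstream.

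Depth ran between 4027152 and 7474654 counts per library. TBT replicate 4 stood apart from its group: Rn45s, the ribosomal RNA precursor, took 6.85% of its counts, against 0.399% to 0.670% in TBT replicates 1 to 3. The median deviation of GC-rich genes from their mean over libraries, minus that of GC-poor genes (the top and bottom 20% by transcript GC), was -0.57, -0.44 and -0.28 on the log2 scale in TBT replicates 1 to 3, and 0.10 in replicate 4. Rn45s took 2.64% to 6.18% of counts in DMSO and 1.36% to 9.27% in ROSI. The GC value was 0.06 to 0.28 in DMSO and -0.03 to 0.44 in ROSI. In both values TBT replicate 4 lay within the ROSI range, and TBT replicates 1 to 3 lay below every DMSO and ROSI library. Members whose calls change without TBT replicate 4 are also given without it. In those fits the TBT group and this shift cannot be told apart, so they are not cleaner results. The cells carried stromal markers, with summed levels of 7 genes between 1756 and 2025 CPM in TBT, 1050 and 1358 CPM in ROSI and 2553 and 3221 CPM in DMSO. CPM is the count per 1000000 counts of the TMM-scaled library. Summed levels of 6 adipocyte markers were 591 to 931 CPM in TBT, 1727 to 1839 CPM in ROSI and 186 to 567 CPM in DMSO. Blood cells, which carry much class I, were nearly absent by their markers: Ptprc reached at most 0.894 CPM in TBT, 0.401 CPM in ROSI and 2.34 CPM in DMSO. The 6 T and NK cell markers, with Nkg7 at 0 counts, summed to at most 2.12 CPM in TBT, 2.61 CPM in ROSI and 4.27 CPM in DMSO, and the 3 B cell markers to at most 0.214 CPM in TBT, 1.00 CPM in ROSI and 0.950 CPM in DMSO. The 7 macrophage markers in the table summed to 19.04 to 35.4 CPM in TBT, 18.9 to 30.1 CPM in ROSI and 24.02 to 27.8 CPM in DMSO, mostly from Cd68 and Cd14. Of 4 dendritic cell markers Siglech, Itgax and Flt3 had 8, 5 and 4 counts over all libraries, and Bst2, which interferon also raises, carried the sum of 25.7 to 60.9 CPM in TBT, 4.51 to 11.2 CPM in ROSI and 50.4 to 96.4 CPM in DMSO. The 4 endothelial markers summed to 4.44 to 7.49 CPM in TBT, 2.26 to 4.42 CPM in ROSI and 6.89 to 9.36 CPM in DMSO. Reads of the 1507 sensory receptor symbols, which these cells should hardly express, summed to 138 ± 36.6 CPM of all counts in TBT, 67.6 ± 7.43 in ROSI and 529 ± 228 in DMSO (SD, n = 4 each), or a mean for each symbol of 0.0918 in TBT, 0.0448 in ROSI and 0.351 in DMSO. In bulk RNA, fewer cells of a type and less RNA per cell cannot be told apart. The part of these marker and background shifts in the results that follow was not tested.

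Members were called between ROSI and each of the other groups, with ROSI the lower group in every such call. TBT and ROSI were compared at different doses, 50 nM and 500 nM. Between TBT and ROSI, H2-K1, H2-D1, B2m, Tap1, Psmb8 and Nlrc5 were higher in TBT, 6 of 10 members in edgeR's quasi-likelihood test at an adjusted p under 0.05, where 12.8% of all tested genes were called higher. No member was called lower in TBT than in ROSI, 0 by edgeR, 0 at an unadjusted p under 0.05, 0 by DESeq2 and 0 by limma on the deposited log2 values, where 11.1% of all genes were. Between ROSI and DMSO, H2-K1, B2m, Tap1, Psmb8 and Psmb9 fell in ROSI, 5 of 10 members, where 12.6% of all tested genes were called lower and 22.6% in either direction. No member was called higher in ROSI, 0 by edgeR, 0 at an unadjusted p under 0.05, 0 by DESeq2 and 0 by limma, where 10% of all genes were. All 10 members had a log2 fold change below 0 in ROSI against DMSO, in edgeR and in each of 22 alternative fits. Of all 12323 tested genes, 6055 were below 0 in edgeR. The 22 fits reuse the same libraries, so their agreement is not independent support. The median of the 10 log2 fold changes was 0.84 for TBT against ROSI and -0.81 for ROSI against DMSO, where the medians of all tested genes were 0.02 and 0.01. TBT against ROSI and ROSI against DMSO share the ROSI libraries, so these 2 sets of values are not independent. Leaving out 1 library at a time, members called higher in TBT than in ROSI numbered 3 to 6 (3 without ROSI replicate 1, TBT replicate 1 or TBT replicate 3). Members called lower in ROSI than in DMSO numbered 4 to 8 (8 without TBT replicate 4, with Tapbp, Psmb10 and Nlrc5 added). Over these fits all called genes numbered 1732 to 4826 in TBT against ROSI and 2219 to 3537 in ROSI against DMSO, against 2940 and 2787.

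No member passed the test between TBT and DMSO in the fit of all 12 libraries. edgeR called 0 members lower and 0 higher in TBT, where 7.03% and 8.22% of all tested genes were called. At an unadjusted p under 0.05, H2-K1, H2-D1 and B2m were higher and Tapbp and Psmb10 lower. DESeq2 called 0 members, and limma on the deposited log2 values called 1 lower, Tapbp, and 0 higher. The median log2 fold change of the 10 was -0.09, against -0.01 over all tested genes. Without TBT replicate 4, edgeR called 3 members higher, H2-K1, H2-D1 and B2m, and 2 lower, Tapbp and Psmb10, with all called genes numbering 4124 instead of 1879. In TBT against ROSI that fit called 4826 genes instead of 2940. A call that missed the threshold does not show that TBT and DMSO act alike, and intervals of the differences are given for each gene.

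**Figure D2:**
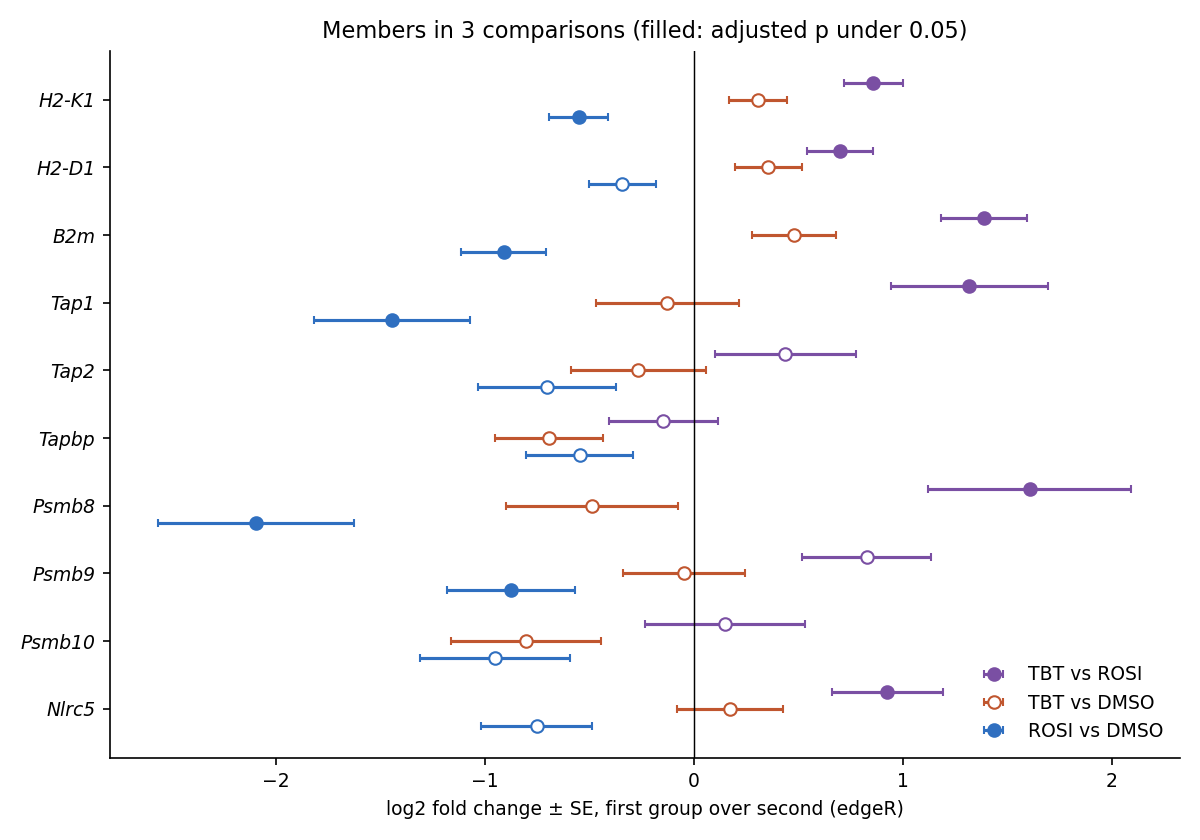
Log2 fold changes ± SE of the 10 members from edgeR in TBT against ROSI, TBT against DMSO and ROSI against DMSO, with filled points at an adjusted p under 0.05. The TBT against ROSI points are filled to the right of 0 for 6 members, the ROSI against DMSO points are filled to the left of 0 for 5, and no TBT against DMSO point is filled.

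The heavy chains and B2m were the members with the most counts. H2-K1 encodes the heavy chain H-2K. It had 241, 265, 272 and 188 CPM in TBT replicates 1 to 4, 117, 122, 152 and 141 CPM in ROSI replicates 1 to 4 and 172, 213, 179 and 215 CPM in DMSO replicates 1 to 4. The 4 TBT libraries all lay above the 4 ROSI libraries, the 4 ROSI libraries all lay below the 4 DMSO libraries, and TBT replicate 4 fell within the DMSO range. Libraries failed to overlap in this way for 3 members in TBT against ROSI, H2-K1, H2-D1 and B2m, all higher in TBT, where 10.9% of all tested genes were higher and 9.89% lower in this way. They failed to overlap for 6 members in ROSI against DMSO, H2-K1, B2m, Tap1, Tapbp, Psmb8 and Nlrc5, all lower in ROSI, where 15.4% of genes were lower and 13% higher, and for 0 in TBT against DMSO, where 7.42% were higher and 8.26% lower. The log2 fold change of H2-K1 was 0.86 ± 0.14 (SE) in TBT against ROSI (adjusted p = 0.00038, edgeR) and -0.55 ± 0.14 in ROSI against DMSO (adjusted p = 0.0083, edgeR). In TBT against DMSO it was 0.31, with an interval of 0.03 to 0.58 (95%; adjusted p = 0.14, edgeR), and 0.42 without TBT replicate 4 (adjusted p = 0.016).

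H2-D1 encodes H-2D, the other classical heavy chain of this strain. It had 201, 234, 236 and 172 CPM in the TBT libraries, 101, 122, 152 and 145 CPM in the ROSI libraries and 129, 179, 154 and 196 CPM in the DMSO libraries. All TBT values lay above all ROSI values, while the lowest DMSO library, replicate 1, lay within the ROSI range. H2-D1 was 1.62-fold higher in TBT than in ROSI (log2 fold change 0.70 ± 0.16, adjusted p = 0.0049, edgeR). ROSI and DMSO differed by -0.34 ± 0.16 on the log2 scale, which missed the threshold (adjusted p = 0.14, edgeR), and TBT and DMSO by 0.36, with an interval of 0.05 to 0.67 (adjusted p = 0.13, edgeR). With TBT replicate 4 left out, the last of these was 0.45 (adjusted p = 0.03). Of the 50-base windows in the annotated transcripts, 7.89% of those of H2-K1 and 14.3% of those of H2-D1 also occur in another gene, mostly other class I genes, so that some of their reads could be shared.

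B2m encodes beta-2 microglobulin, the light chain of every class I molecule. Its levels were 1646, 1507, 1467 and 1001 CPM in the TBT libraries, 438, 437, 631 and 641 CPM in the ROSI libraries and 1275, 1185, 849 and 725 CPM in the DMSO libraries. The ROSI libraries were the 4 lowest of the 12, and TBT replicate 4 lay below DMSO replicates 1 and 2. B2m was 2.62-fold higher in TBT than in ROSI (log2 fold change 1.39 ± 0.21, adjusted p = 0.00015, edgeR) and lower in ROSI than in DMSO (-0.91 ± 0.20, adjusted p = 0.0033, edgeR). Against DMSO, TBT had 0.48, with an interval of 0.08 to 0.88 (adjusted p = 0.11, edgeR), and 0.63 without TBT replicate 4 (adjusted p = 0.013). No 50-base window of B2m occurs elsewhere, and its transcript has a GC content of 41.2%, against 52.7% to 57.3% for the other members. With GC-corrected offsets, an alternative chosen after seeing the data, edgeR called H2-K1 and H2-D1 higher in TBT than in DMSO and did not call B2m.

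Per kilobase of merged exons, B2m was the most abundant member in all groups, at 1634 ± 326 CPM per kb in TBT, 624 ± 133 in ROSI and 1173 ± 306 in DMSO (SD, n = 4 each). H2-K1 followed at 146 ± 23 CPM per kb in TBT, 80.3 ± 9.90 in ROSI and 118 ± 13.5 in DMSO, and H2-D1 at 100.4 ± 14.4 in TBT, 61.8 ± 11 in ROSI and 78.4 ± 13.9 in DMSO. The spreads of H2-K1 and H2-D1 did not meet in TBT and DMSO and met in ROSI. Tapbp was next at 11.6 ± 6.14 CPM per kb in TBT, 12.8 ± 2.16 in ROSI and 18.8 ± 3.80 in DMSO. The other 6 members had means between 0.685 and 6.57 CPM per kb in every group, lowest for Psmb8 in ROSI and highest for Psmb9 in DMSO. In DMSO their order was Psmb9 (6.57 ± 1.32), Psmb10 (5.97 ± 1.74), Tap1 (3.34 ± 1.26), Psmb8 (3.31 ± 1.12), Tap2 (1.26 ± 0.298) and Nlrc5 (1.19 ± 0.289 CPM per kb). Of the neighbours in this order, the means ± SD of Psmb8 and Tap2 did not meet, and those of the other 4 neighbouring pairs met.

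**Figure D3:**
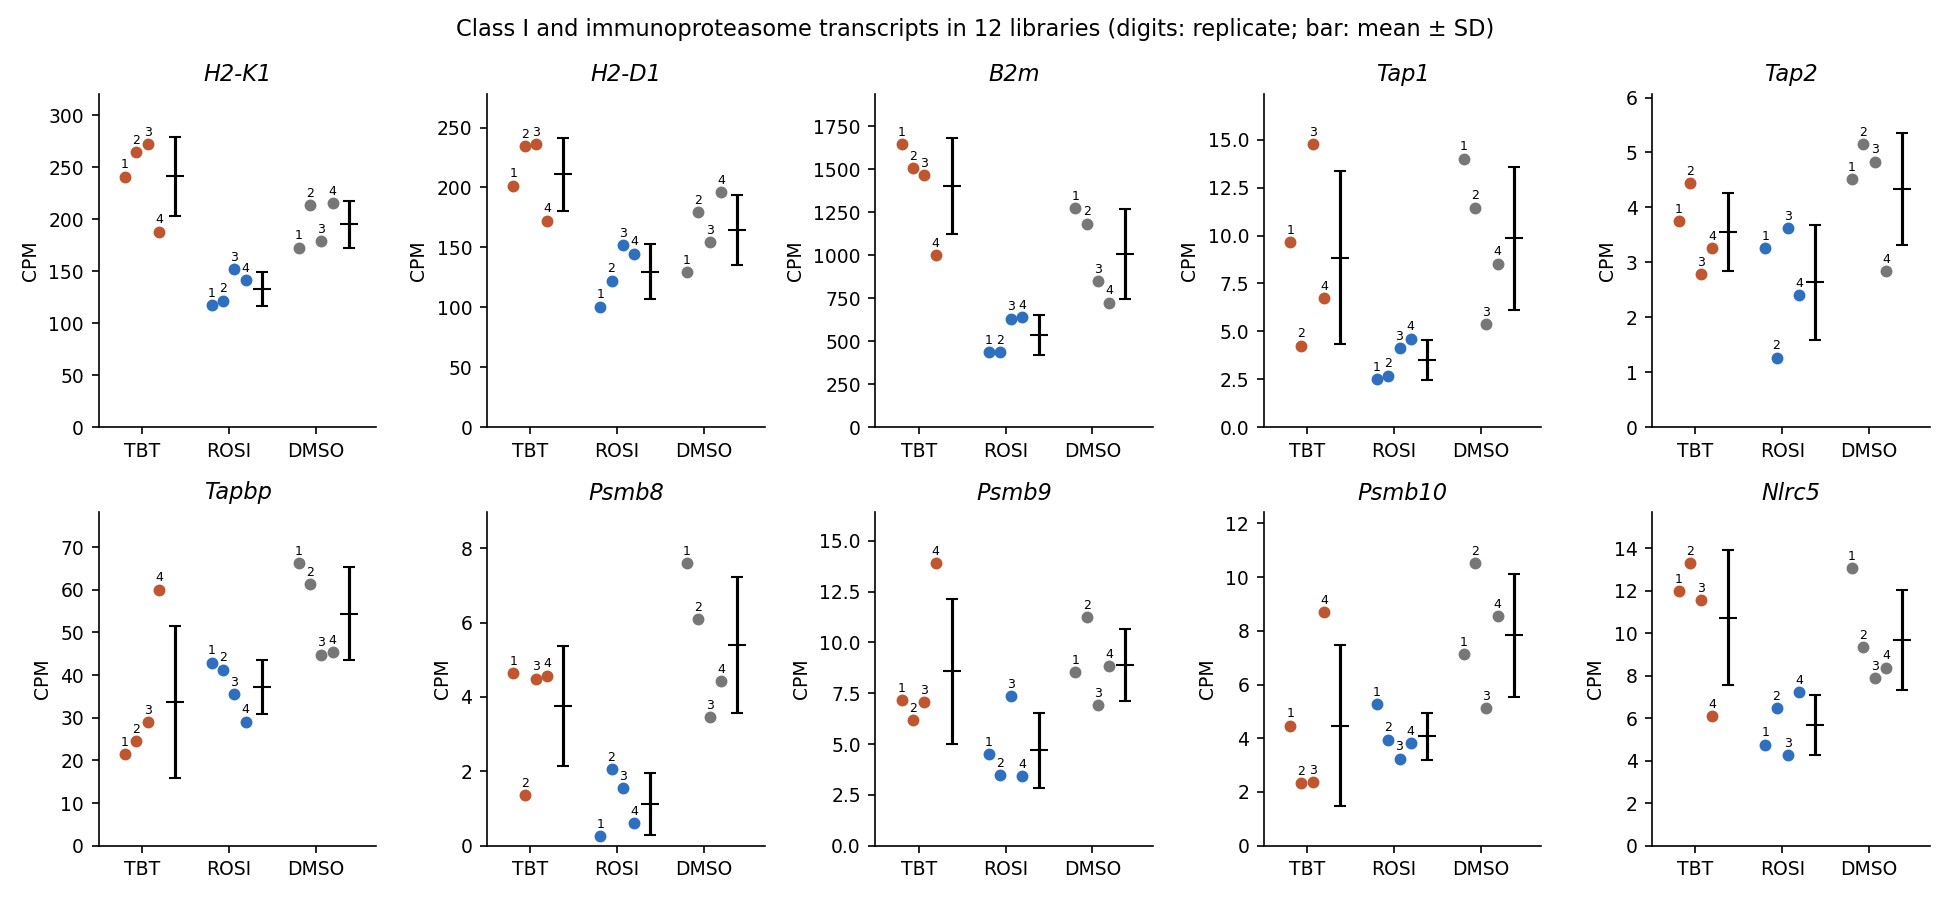
CPM of each of the 10 members in the 4 libraries of TBT, ROSI and DMSO, with digits for replicates and bars for mean ± SD; each panel has its own axis from 0. ROSI values are the lowest 4 for H2-K1 and B2m, and TBT replicate 4 is the lowest TBT library for H2-K1, H2-D1, B2m and Nlrc5 and the highest for Tapbp, Psmb9 and Psmb10.

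Of the transport and loading genes, Tap1 differed with ROSI and Tap2 and Tapbp did not pass the test. Tap1 and Tap2 encode the subunits of the peptide transporter. Tap1 had 9.65, 4.25, 14.8 and 6.74 CPM in the TBT libraries, 2.51, 2.69, 4.14 and 4.61 CPM in the ROSI libraries and 14.0, 11.5, 5.39 and 8.53 CPM in the DMSO libraries. The ROSI libraries all lay below the DMSO libraries, while TBT replicate 2 lay within the ROSI range. Tap1 was lower in ROSI than in DMSO, by a log2 fold change of -1.44 ± 0.37 (adjusted p = 0.0091, edgeR), and higher in TBT than in ROSI, by 1.32 ± 0.38 (adjusted p = 0.019, edgeR). The call between TBT and ROSI was lost without ROSI replicate 1 or 2 or TBT replicate 1 or 3 (adjusted p up to 0.094). TBT against DMSO gave -0.13, with an interval of -0.80 to 0.55 (adjusted p = 0.83, edgeR).

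Tap2 had few counts, 227 over all 12 libraries, and levels of 2.78 to 4.44 CPM in TBT, 1.26 to 3.62 CPM in ROSI and 2.84 to 5.15 CPM in DMSO. The groups overlapped in every comparison. Its log2 fold changes were 0.44 ± 0.34 in TBT against ROSI (adjusted p = 0.36), -0.27 in TBT against DMSO, with an interval of -0.90 to 0.37 (adjusted p = 0.6), and -0.70 ± 0.33 in ROSI against DMSO (adjusted p = 0.14, edgeR). Of its 50-base windows 9.90% occur in another gene, chiefly Gm15821, which lies antisense to it.

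Tapbp encodes tapasin, which tethers empty class I molecules to the transporter. It had 21.4, 24.5, 28.9 and 60.0 CPM in the TBT libraries, 42.9, 41.2, 35.4 and 29.1 CPM in the ROSI libraries and 66.3, 61.3, 44.8 and 45.4 CPM in the DMSO libraries. TBT replicates 1 to 3 were the lowest libraries of the 12, TBT replicate 4 stood among the DMSO libraries, and the ROSI libraries all lay below the DMSO libraries. No comparison passed the test with all libraries: TBT against ROSI was -0.15 ± 0.26 (adjusted p = 0.71), TBT against DMSO -0.69, with an interval of -1.20 to -0.19 (adjusted p = 0.077), and ROSI against DMSO -0.55 ± 0.26 (adjusted p = 0.14, edgeR). Without TBT replicate 4, edgeR called all 3, at -0.57 in TBT against ROSI (adjusted p = 0.018), -1.11 in TBT against DMSO (adjusted p = 2e-04) and -0.54 in ROSI against DMSO (adjusted p = 0.015). Gm19412, antisense to Tapbp, shares most of the 20.7% of Tapbp windows that occur elsewhere, and the reads carry no strand.

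The immunoproteasome subunits differed among themselves. Psmb8 encodes the subunit beta5i, which replaces beta5 (Psmb5). Psmb8 had 4.65, 1.35, 4.49 and 4.57 CPM in the TBT libraries, 0.251, 2.05, 1.55 and 0.602 CPM in the ROSI libraries and 7.60, 6.08, 3.45 and 4.43 CPM in the DMSO libraries. ROSI lay below every DMSO library, with 1 and 3 counts in ROSI replicates 1 and 4, and TBT replicate 2 lay within the ROSI range. Psmb8 had the largest log2 fold change of the members in ROSI against DMSO, -2.09 ± 0.47 (adjusted p = 0.0033, edgeR), and in TBT against ROSI, 1.61 ± 0.49 (adjusted p = 0.025, edgeR). It had 215 counts over 12 libraries. Over the 10 alternative fits other than those only leaving out 1 library, it ran from -2.25 to -0.68 and from 0.46 to 1.79. B2m ran from -0.97 to -0.70 and from 1.12 to 1.49 there, so the ranking did not hold in every fit. The Psmb8 call between TBT and ROSI was lost without ROSI replicate 1 or 4 or TBT replicate 1 or 3 (adjusted p up to 0.075). TBT against DMSO was -0.49, with an interval of -1.29 to 0.32 (adjusted p = 0.43, edgeR).

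Psmb9 encodes beta1i, the replacement of beta1 (Psmb6). Its levels were 7.15, 6.18, 7.06 and 13.9 CPM in TBT, 4.51, 3.48, 7.37 and 3.41 CPM in ROSI and 8.55, 11.2, 6.91 and 8.85 CPM in DMSO. ROSI replicate 3 lay within both other groups, and its other libraries lay below all of them. Psmb9 was lower in ROSI than in DMSO, barely past the threshold (log2 fold change -0.87 ± 0.31, adjusted p = 0.048, edgeR). That call was lost without DMSO replicate 1, 2 or 4, ROSI replicate 1, 2 or 4, or TBT replicate 1 or 3 (adjusted p up to 0.14). In TBT against ROSI it was 0.83 ± 0.31 (adjusted p = 0.059, edgeR), called when ROSI replicate 3 or TBT replicate 2 was left out (lowest adjusted p 0.02) and with no other library left out. TBT against DMSO was -0.05, with an interval of -0.62 to 0.53. Tap1 and Psmb9 exons overlap by 212 bases on opposite strands, and 12.5% of Psmb9 windows also occur in Tap1, so that some reads of one can be counted with the other.

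Psmb10 encodes beta2i, the replacement of beta2 (Psmb7). It had 4.47, 2.32, 2.35 and 8.70 CPM in TBT, 5.27, 3.95, 3.23 and 3.81 CPM in ROSI and 7.13, 10.5, 5.11 and 8.53 CPM in DMSO. TBT replicates 2 and 3 were the lowest of the 12 libraries, TBT replicate 4 lay among the DMSO libraries, and ROSI replicate 1 was the ROSI library within the DMSO range. No comparison passed: TBT against ROSI was 0.15 ± 0.38 (adjusted p = 0.8), TBT against DMSO -0.80, with an interval of -1.51 to -0.10 (adjusted p = 0.13), and ROSI against DMSO -0.95 ± 0.36 (adjusted p = 0.067, edgeR). With TBT replicate 4 left out both comparisons with DMSO were called (adjusted p = 0.005 and 0.016, edgeR), and TBT against ROSI turned to -0.36; without DMSO replicate 3 ROSI against DMSO was called as well.

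With all libraries, no constitutive partner of an immunosubunit was called. Psmb5 averaged 24.9 ± 10.5 CPM in TBT, 34.5 ± 4.14 CPM in ROSI and 30.8 ± 3.56 CPM in DMSO (SD, n = 4 each). Psmb6 averaged 36.4 ± 9.99 CPM in TBT, 50.8 ± 6.73 CPM in ROSI and 47.1 ± 5.43 CPM in DMSO, and Psmb7 80.8 ± 5.16 CPM in TBT, 85.8 ± 6.63 CPM in ROSI and 75.8 ± 9.86 CPM in DMSO. The lowest adjusted p of the 3 was that of Psmb6 in TBT against ROSI (0.051, edgeR). Without TBT replicate 4, Psmb5 and Psmb6 were called lower in TBT than in ROSI (log2 fold change -0.80 and -0.67, adjusted p = 0.00054 and 0.0018, edgeR) and than in DMSO (-0.64 and -0.55, adjusted p = 0.0046 and 0.0089), and Psmb6 was also called against ROSI without ROSI replicate 3. The log2 CPM difference of Psmb8 minus Psmb5 averaged -2.66 ± 0.66 in TBT, -4.75 ± 0.93 in ROSI and -2.49 ± 0.58 in DMSO. TBT minus ROSI was 2.09 and ROSI minus DMSO was -2.26, with no overlap between the libraries in both cases (exact permutation test, two-sided, p = 0.0286 each, the smallest that 70 arrangements allow; 0.064 each after Benjamini-Hochberg adjustment over 9 differences). Psmb9 minus Psmb6 averaged -2.08 ± 0.28 in TBT, -3.39 ± 0.61 in ROSI and -2.37 ± 0.17 in DMSO, so that TBT minus ROSI was 1.32 (exact permutation p = 0.0286, adjusted 0.064) and ROSI minus DMSO was -1.02 (exact permutation p = 0.0571, adjusted 0.1). Psmb10 minus Psmb7 averaged -4.26 ± 0.86 in TBT, -4.30 ± 0.22 in ROSI and -3.25 ± 0.44 in DMSO. In this pair TBT minus ROSI was 0.04 (exact permutation p = 0.943) and ROSI minus DMSO was -1.04 (exact permutation p = 0.0286, adjusted 0.064). TBT minus DMSO was -0.17 for Psmb8, 0.30 for Psmb9 and -1.01 for Psmb10 (exact permutation p = 0.714, 0.2 and 0.0857). None of the 9 differences passed the threshold after adjustment.

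**Figure D4:**
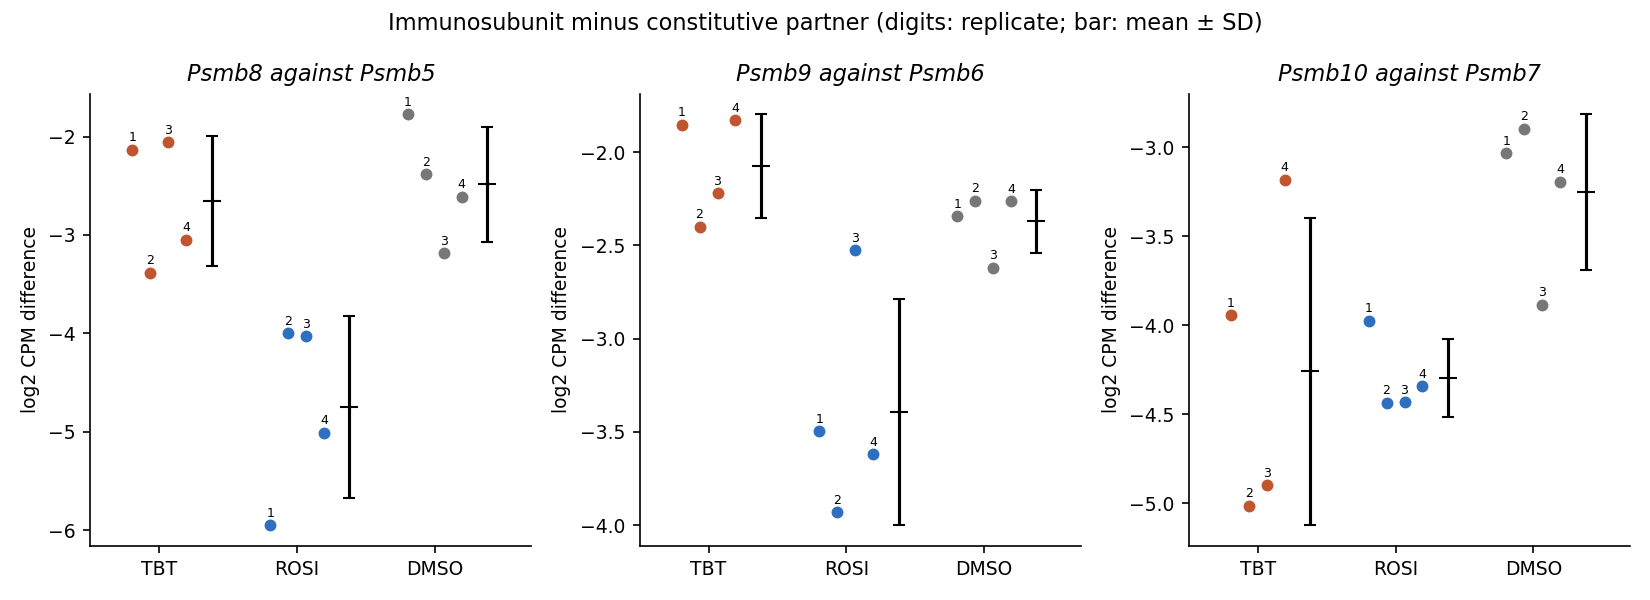
Log2 CPM difference of each immunoproteasome subunit minus its constitutive partner in the 4 libraries of TBT, ROSI and DMSO, with digits for replicates and bars for mean ± SD. ROSI libraries lie lowest for Psmb8 against Psmb5, while for Psmb10 against Psmb7 TBT replicates 2 and 3 lie below every ROSI library, TBT replicate 1 lies between ROSI and DMSO, and TBT replicate 4 lies among the DMSO libraries.

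Nlrc5 encodes the transactivator of class I genes. It had 12.0, 13.3, 11.6 and 6.09 CPM in the TBT libraries, 4.76, 6.48, 4.27 and 7.22 CPM in the ROSI libraries and 13.1, 9.36, 7.87 and 8.38 CPM in the DMSO libraries. TBT replicates 1 to 3 lay above all ROSI libraries and TBT replicate 4 did not, and the DMSO libraries all lay above the ROSI libraries. Nlrc5 was 1.90-fold higher in TBT than in ROSI (log2 fold change 0.93 ± 0.27, adjusted p = 0.019, edgeR), a call lost without ROSI replicate 1 or 3 or TBT replicate 1, 2 or 3 (adjusted p up to 0.069). ROSI against DMSO was -0.75 ± 0.27, just outside the threshold (adjusted p = 0.052, edgeR), and called without ROSI replicate 4 or TBT replicate 4 (lowest adjusted p 0.018). TBT against DMSO was 0.17, with an interval of -0.32 to 0.67 (adjusted p = 0.67, edgeR). Of 11 genes that form or assist the NLRC5 module complex (RFX, NF-Y and CREB/ATF subunits and acetyltransferases), edgeR called 2 higher in TBT than in ROSI, 1 higher in TBT than in DMSO and 1 higher in ROSI than in DMSO, with medians of 0.23, 0.19 and -0.01. Of all tested genes 12.8%, 8.22% and 10% were called higher in these comparisons, so the list stood near the share of all genes. Leaving out TBT replicate 4, the counts in this list were 5, 3 and 1, with 1 lower in TBT in each of its comparisons. That fit called 4826 genes of all in TBT against ROSI and 4124 in TBT against DMSO. Atf1, a CREB family factor, averaged 157 ± 56.9 CPM in TBT, 92.3 ± 12.4 CPM in ROSI and 59.5 ± 8.68 CPM in DMSO, and it rose in all 3 comparisons (log2 fold change 0.77, 1.40 and 0.63 for TBT against ROSI, TBT against DMSO and ROSI against DMSO; adjusted p = 0.012, 0.00046 and 0.034, edgeR). The call against ROSI was lost without TBT replicate 3, and that in ROSI against DMSO without DMSO replicate 1 or 2 or ROSI replicate 2 or 4 (adjusted p up to 0.1). The other gene called in TBT against ROSI was Kat2b, an acetyltransferase, at 124 ± 33.5 CPM in TBT and 77.7 ± 12.9 CPM in ROSI (log2 fold change 0.67 ± 0.17, adjusted p = 0.011, edgeR), a call lost without TBT replicate 1.

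Of 33 other class I genes, 18 could be tested, and nonclassical H2-T genes led the calls. In TBT against ROSI 6 were higher and 0 lower in edgeR (1 lower at an unadjusted p under 0.05; 0 lower by DESeq2, 1 by limma), and in ROSI against DMSO 5 were lower and 0 higher (0 at an unadjusted p under 0.05, 0 by DESeq2 and 0 by limma). Median log2 fold changes were 0.18 in TBT against ROSI and -0.59 in ROSI against DMSO. Between TBT and DMSO 1 was higher and 1 lower, with a median of -0.51. Of all tested genes 12.8% were higher and 11.1% lower in TBT than in ROSI. In ROSI against DMSO 12.6% were lower and 10% higher, and in TBT against DMSO 8.22% were higher and 7.03% lower. Over the fits that left out 1 library, 2219 to 3537 genes of all were called in ROSI against DMSO. Without TBT replicate 4, edgeR called 4826 genes of all in TBT against ROSI and 4124 in TBT against DMSO. In this list 1 was then lower in TBT than in ROSI, 6 were lower in TBT than in DMSO and 8 lower in ROSI than in DMSO. These counts include 2 pairs of symbols whose counts differed by at most 2 in every library, H2-T9 with H2-T22 and H2-Q6 with H2-Q8. With each pair taken once, a choice made after seeing the data, 16 genes remained, of which 5 were higher in TBT than in ROSI and 4 lower in ROSI than in DMSO (7 without TBT replicate 4), with medians of 0.18 and -0.59. H2-T24, a nonclassical class I gene, averaged 13.5 ± 3.13 CPM in TBT, 3.50 ± 1.15 CPM in ROSI and 15.0 ± 5.85 CPM in DMSO (log2 fold change 1.90 ± 0.30 in TBT against ROSI, adjusted p = 0.00024; -2.03 ± 0.29 in ROSI against DMSO, adjusted p = 7.6e-05, edgeR). H2-T23, which encodes the nonclassical molecule Qa-1, averaged 39.4 ± 16.2 CPM in TBT, 23.98 ± 6.89 CPM in ROSI and 72.6 ± 9.51 CPM in DMSO. It fell in ROSI against DMSO (-1.59 ± 0.25, adjusted p = 0.00016, edgeR) and also in TBT against DMSO (-0.88 ± 0.24, adjusted p = 0.023, edgeR), the second call lost without DMSO replicate 1 or 2 or TBT replicate 1, 2 or 3. H2-T22 averaged 18.0 ± 2.91 CPM in TBT, 8.17 ± 0.69 CPM in ROSI and 16.2 ± 2.66 CPM in DMSO, with 1.15 ± 0.18 in TBT against ROSI (adjusted p = 0.00028) and -0.99 ± 0.18 in ROSI against DMSO (adjusted p = 0.00071, edgeR). H2-T9 had counts equal to those of H2-T22 in 7 of 12 libraries and never more than 2 apart, so they are not separate measurements here. Of the 50-base windows, 41.3% for H2-T22 and 29.8% for H2-T23 occur in another gene. H2-T10, also called in both comparisons with ROSI, shares 40.7% of its windows, mostly with H2-T22. H2-M3, which presents formylated bacterial peptides and whose promoter held the X2 to Y module, averaged 12.8 ± 4.98 CPM in TBT, 5.27 ± 1.955 CPM in ROSI and 6.78 ± 0.844 CPM in DMSO. It was the gene of this list called higher in TBT than in DMSO (0.91 ± 0.29, adjusted p = 0.045, edgeR), and that call was lost in 9 of the 12 fits that left out 1 library. H2-M3 was chosen for its promoter after its values were seen.

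Genes of peptide trimming and loading changed in both directions. Of 15 tested, 2 were higher and 6 lower in TBT than in ROSI, 1 was lower in TBT than in DMSO, and 2 higher and 2 lower in ROSI than in DMSO, with medians of -0.13, -0.03 and 0.07. Of all tested genes 12.8% were higher and 11.1% lower in TBT than in ROSI. In TBT against DMSO 7.03% were lower, and in ROSI against DMSO 10% were higher and 12.6% lower. Apart from the 6 lower in TBT than in ROSI, the counts of this list stood near these shares. Leaving out 1 library moved the 6 to as few as 3. When TBT replicate 4 was left out, 2 were higher and 3 lower in TBT than in DMSO, and 3 were higher in ROSI than in DMSO. That fit called 4124 genes of all in TBT against DMSO. Calr, encoding calreticulin, averaged 262 ± 83.5 CPM in TBT, 701 ± 177 CPM in ROSI and 515 ± 90.0 CPM in DMSO and fell in TBT against both (-1.42 ± 0.22, adjusted p = 0.00021, against ROSI; -0.98 ± 0.22, adjusted p = 0.0079, against DMSO; edgeR). Hspa5, encoding the chaperone BiP, averaged 1721 ± 586 CPM in TBT, 4739 ± 1514 CPM in ROSI and 1649 ± 406 CPM in DMSO, and Canx, encoding calnexin, 514 ± 62.8 CPM in TBT, 796 ± 115 CPM in ROSI and 481 ± 64.4 CPM in DMSO. Both were higher in ROSI than in DMSO (1.52 ± 0.25 and 0.73 ± 0.14; adjusted p = 0.00023 and 0.0011, edgeR), the direction opposite to that of the members called there. Ube2l6, the ISG15 conjugating enzyme kept in this list, averaged 6.38 ± 1.70 CPM in TBT, 2.69 ± 1.00 CPM in ROSI and 8.91 ± 3.49 CPM in DMSO and fell in ROSI against DMSO (-1.66 ± 0.34, adjusted p = 0.0017, edgeR).

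With all libraries, few genes of the rest of the proteasome were called. Of all tested genes 22.6% were called in either direction in ROSI against DMSO, 15.2% in TBT against DMSO and 23.9% in TBT against ROSI. Of 14 constitutive 20S subunits, edgeR called 0 in ROSI against DMSO (1 lower and 0 higher at an unadjusted p under 0.05, 0 by DESeq2 and 0 by limma), 1 lower in TBT against DMSO and 1 lower in TBT against ROSI, and in both it was Psmb2, at 28.0 ± 11.1 CPM in TBT, 47.4 ± 8.44 CPM in ROSI and 44.9 ± 5.88 CPM in DMSO. Without TBT replicate 4, edgeR called 6 of the 14 lower in TBT than in DMSO and 6 lower than in ROSI. Over all genes that fit called 4124 and 4826 in either direction, against 1879 and 2940 with all libraries. The same totals stand beside the 19S and activator counts without it. Without any 1 of the other 11 libraries the Psmb2 call against DMSO was lost (adjusted p up to 0.13). Its call against ROSI was lost without ROSI replicate 1 or 2 or TBT replicate 1 or 2 (adjusted p up to 0.067). Of 22 subunits of the 19S particle, Psmc3 followed the members, at 77.4 ± 10.3 CPM in TBT, 44.9 ± 7.74 CPM in ROSI and 73.8 ± 14.2 CPM in DMSO (0.79 ± 0.16 in TBT against ROSI, adjusted p = 0.0024; -0.72 ± 0.16 in ROSI against DMSO, adjusted p = 0.0037, edgeR). The other 19S calls were in the opposite direction: Psmd2 and Psmd10 were lower in TBT than in ROSI (-0.39 ± 0.14 and -0.64 ± 0.20, adjusted p = 0.047 and 0.027, edgeR), calls lost in 8 and 5 of the 12 fits that left out 1 library. In the 19S list without TBT replicate 4, 5 genes were lower in TBT than in ROSI and 4 lower than in DMSO, and 1 was higher in ROSI than in DMSO. Psme1 encodes PA28 alpha, the interferon-inducible proteasome activator. It averaged 89.8 ± 19.5 CPM in TBT, 48.8 ± 5.75 CPM in ROSI and 79.7 ± 8.99 CPM in DMSO, with no overlap of ROSI with either group (0.88 ± 0.16 in TBT against ROSI, adjusted p = 0.00092; -0.70 ± 0.16 in ROSI against DMSO, adjusted p = 0.0037, edgeR). It was the gene called among 10 activator and assembly genes in either comparison, and without TBT replicate 4 another 5 of them were called lower in TBT than in ROSI. MHC class II genes were mostly too low to test: 2 of 11 were tested, H2-DMa and Ciita, and edgeR called 0 in any comparison (0 at an unadjusted p under 0.05, 0 by DESeq2 and 0 by limma), and 1 lower in TBT without TBT replicate 4.

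Several interferon signalling genes fell in ROSI. Of 16 tested out of 24, 7 fell and 1 rose in ROSI against DMSO, 6 were higher and 3 lower in TBT than in ROSI, and 3 were lower in TBT than in DMSO. Of all tested genes 12.6% were lower and 10% higher in ROSI than in DMSO. The shares were 12.8% higher and 11.1% lower in TBT than in ROSI, and 7.03% lower in TBT than in DMSO. Fits that left out 1 library called 2219 to 3537 genes of all in ROSI against DMSO. Without TBT replicate 4, edgeR called 4826 genes of all in TBT against ROSI and 4124 in TBT against DMSO. In this list 9 then fell in ROSI against DMSO, 7 were higher in TBT than in ROSI and 5 lower in TBT than in DMSO. Stat2, Irf9, Irf7 and Usp18 had the smallest p. Stat2 and Irf9 encode factors of the type I interferon response. Stat2 averaged 167 ± 41.0 CPM in TBT, 52.2 ± 1.66 CPM in ROSI and 207 ± 58.7 CPM in DMSO, and Irf9 70.9 ± 16.1 CPM in TBT, 22.4 ± 2.17 CPM in ROSI and 79.8 ± 23.9 CPM in DMSO. Irf7, a factor that amplifies type I interferon, averaged 39.2 ± 25 CPM in TBT, 4.57 ± 0.687 CPM in ROSI and 58.4 ± 25.9 CPM in DMSO. Usp18, which restrains the interferon receptor, averaged 44.3 ± 16.8 CPM in TBT, 5.47 ± 0.794 CPM in ROSI and 44.7 ± 15.3 CPM in DMSO. In ROSI against DMSO their log2 fold changes were -1.98 ± 0.20, -1.83 ± 0.21, -3.66 ± 0.43 and -3.00 ± 0.31 for Stat2, Irf9, Irf7 and Usp18 (largest adjusted p = 9.2e-06, edgeR), and in TBT against ROSI 1.68, 1.66, 3.09 and 2.99 (largest adjusted p = 8.3e-05). In TBT against DMSO they were -0.30, -0.17, -0.57 and -0.0051 (adjusted p = 0.28, 0.59, 0.28 and 0.99, edgeR). Without TBT replicate 4, Irf7 was called lower in TBT than in DMSO (adjusted p = 0.0083, edgeR).

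**Figure D5:**
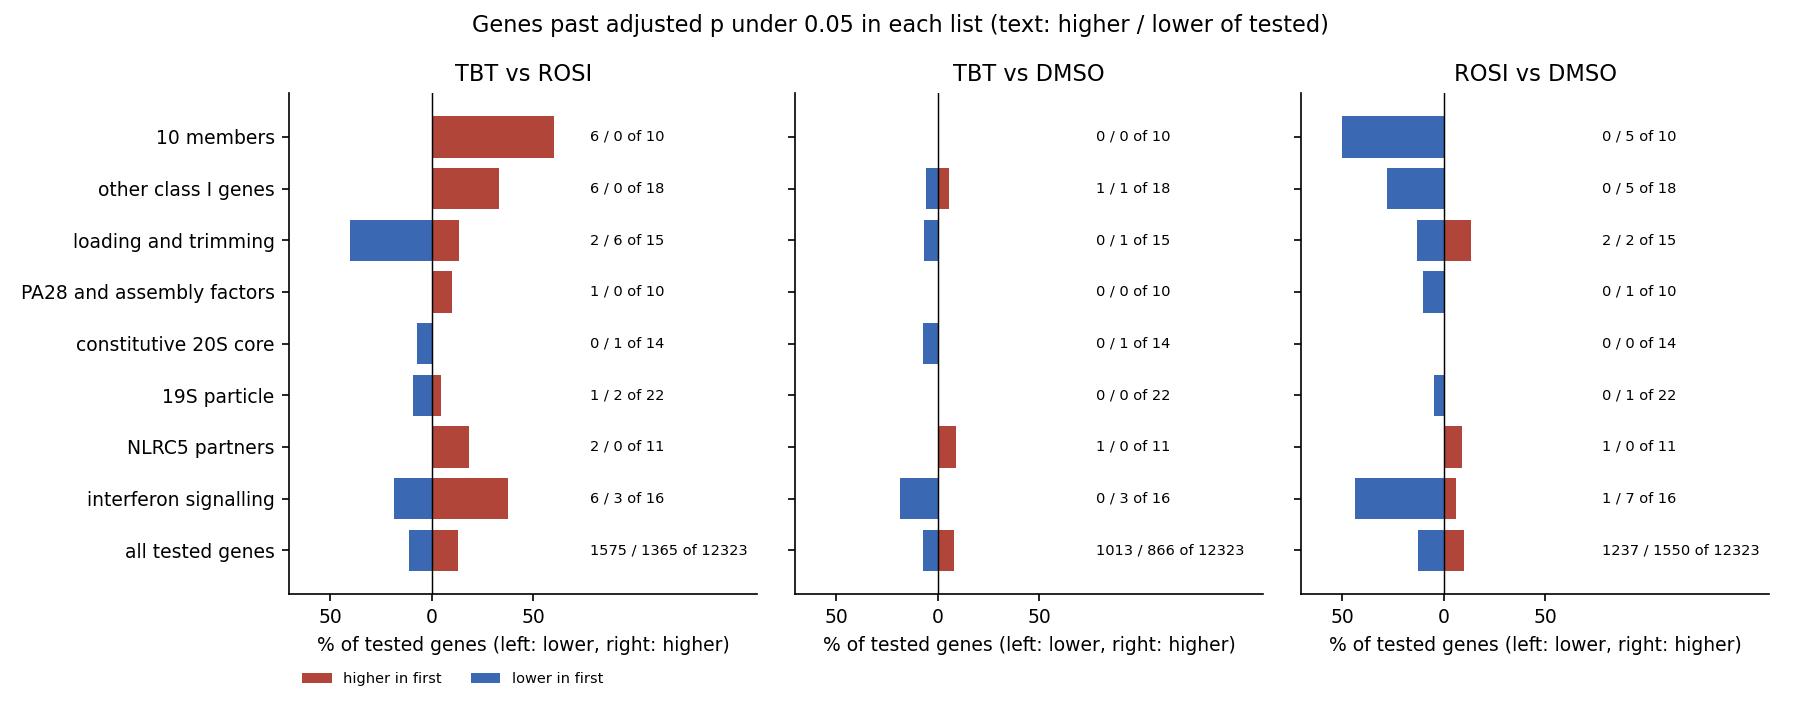
Percent of tested genes past an adjusted p under 0.05 in each gene list, higher to the right and lower to the left, for TBT against ROSI, TBT against DMSO and ROSI against DMSO. Members were called higher in TBT against ROSI (6 of 10) and lower in ROSI against DMSO (5 of 10), and loading and trimming genes were called mostly lower in TBT against ROSI (6 of 15).

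Across the 12 libraries the 5 genes whose log2 CPM was most like that of the members, by mean Pearson r with the 10, were Dcn (0.68), Lgals3bp (0.67), Bmp4 (0.67), Apol9b (0.67) and Lgals9 (0.67). These r include the differences between the 3 groups, so the levels of these genes by group restate how they were chosen and are given as a description, with no test. Dcn, a matrix proteoglycan of stromal cells, averaged 673 ± 84.7 CPM in TBT, 179 ± 37.5 CPM in ROSI and 797 ± 208 CPM in DMSO. Apol9b averaged 29.5 ± 8.54 CPM in TBT, 3.46 ± 0.979 CPM in ROSI and 36.4 ± 8.90 CPM in DMSO. Among the members themselves the 45 pairwise r had a median of 0.48 and ran between -0.44 for Tapbp with H2-D1 and 0.95 for H2-K1 with H2-D1, with 8 pairs below 0.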

How the data were processed

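The authors deposited raw read counts per gene symbol and regularized-log values on a log2 scale for the 12 libraries. Libraries were depleted of ribosomal RNA and sequenced as single reads of 50 nt on a SOLiD instrument with no strand, per the labels' protocols, so antisense reads cannot be told apart. The submitters' processing notes name the mm9 build and the tools DESeq2, SAMtools and FastQC, without versions. The sources used here give no aligner, counting program or annotation. Columns were mapped by library title.

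Counts were filtered with filterByExpr and TMM-scaled, and 1 quasi-likelihood model without covariates was fitted to 12 libraries with edgeR 4.0.16 in R 4.3.3, with Benjamini-Hochberg adjustment over all 12323 tested genes and a threshold of 0.05. The scripts were tested on simulated data. Log2 CPM used a prior count of 2. Alternatives were other scalings, DESeq2 1.42.0, limma 3.58.1 on the deposited log2 values, no filter, a replicate block, fits of 2 groups, left-out libraries and, chosen after seeing the data, GC correction. Gene lengths, GC and shared windows came from GENCODE vM21, and promoters from RefSeq.

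The members and lists were chosen with earlier results of these data known. Named genes are the members, Psmb5, Psmb6 and Psmb7, up to 4 genes per list called against DMSO, by smallest p over the comparisons, and the 5 genes most like the members by mean r; others were chosen after their values were seen. No libraries of a group were copies: the lowest chi-square per degree of freedom over genes was 4.66.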

Additional observations from a re-analysis of the deposited data

Results flagged for a closer look

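Within each group of 4 libraries, the highest and lowest library of each member were compared with the nearest other library, as a share of the group's range, against Dixon's 95% critical value. Of 30 groups, 2 passed, and chance alone passes about 1 in 20. Psmb8 had 1.35 CPM in TBT replicate 2, below the other TBT libraries at 4.49 to 4.65 CPM, on 7 counts. Psmb9 had 13.9 CPM in TBT replicate 4, above the other TBT libraries at 6.18 to 7.15 CPM. TBT replicate 4 is also the library that stood apart from the other TBT libraries by its ribosomal RNA and GC values. The part of these in the Psmb9 value was not tested.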

How the results depend on the processing

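Counts of 215 to 552 over 12 libraries limit Tap1, Tap2, Psmb8, Psmb9, Psmb10 and Nlrc5, and 4 libraries a group limit every comparison. In all 22 alternatives H2-K1 and B2m kept their calls against ROSI in both comparisons, and H2-D1 its call in TBT against ROSI. Tap1 and Psmb8 also kept their calls in ROSI against DMSO in all 22 (largest adjusted p 0.038 and 0.014). Other scalings moved the median of all genes by at most 0.07 on the log2 scale.

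In ROSI against DMSO, 8 members were called lower with only the 2 groups fitted, with DMSO replicate 3 and TBT replicate 4 left out together, and with GC correction and no TBT replicate 4. Over the 10 alternatives other than only leaving out 1 library, called genes there numbered 2289 to 3766, against 2787 in the main fit. In TBT against DMSO, called genes numbered 1199 with only the 2 groups, 1160 with a replicate block, 3741 with the same 2 libraries out and 3548 with GC correction and no TBT replicate 4, against 1879. Members called lower there were 1 without a filter, 1 with limma, and 2 with either pair of choices that drops TBT replicate 4; members called higher were 1 without a filter, 1 with the 2 libraries out, 2 with GC correction, and 2 with GC correction and no TBT replicate 4. In TBT against ROSI, 4650 genes and 1 lower member (Tapbp) were called with the 2 libraries out, against 2940 and 0.

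Leaving out 1 library at a time gave 2219 to 3537 genes and 4 to 8 lower members in ROSI against DMSO. In TBT against DMSO it gave 1019 to 4124 genes, 0 to 2 lower and 0 to 3 higher members. In TBT against ROSI it gave 1732 to 4826 genes, 3 to 6 higher and 0 to 1 lower members. In the 2 comparisons with TBT, the upper ends of the gene counts came without TBT replicate 4.

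Differences that missed the threshold changed sign as follows. In TBT against DMSO, Tap1 was 0.13 with GC correction, 0.25 with GC correction and no TBT replicate 4, and -0.49 to 0.11 with 1 library out; Tap2 was 0.0506 with GC correction and no TBT replicate 4; Psmb9 was 0.11 with GC correction and -0.36 to 0.0855 with 1 library out. In TBT against ROSI, Tapbp was 0.0468 with GC correction and -0.57 to 0.0239 with 1 library out, and Psmb10 was -0.40 with the 2 libraries out, -0.0635 with GC correction and no TBT replicate 4, and -0.36 to 0.37 with 1 library out. The cause was not tested.

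The labels give the groups the same replicate numbers, but deviations of same-numbered libraries correlated at -0.43 to 0.14, so the numbers were not taken as pairs. With the replicate block, 4 members were lower in ROSI than in DMSO (Psmb9 lost) and 5 higher in TBT than in ROSI (Psmb8 lost).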
